A study of Mus musculus with 2 samples.

Results

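Accessible chromatin was described at 7 genes of the T cell anergy programme, namely Egr2, Egr3, Cblb, Itch, Rnf128, Dgka and Dgkz, which were taken from 21911 protein-coding genes. A listed region belonged to a gene where it overlapped the gene body extended by 10 kb at both ends, here called the locus. Replicate 1 had 54 of its 68903 regions in the 7 loci, and replicate 2 had 61 of its 78262. The members were chosen by name.

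The series holds 1 group, with ATAC-seq libraries of regulatory T cells from 2 biological replicates and no second condition. ATAC-seq uses a transposase to cut and tag DNA that is not covered by nucleosomes. The mice were of the strain C57BL/6NJ, the cells were primary cells, sex was not collected and age is unknown, per the labels. Names of the listed regions give 72 hours, and a CD4 T cell differentiation protocol that the labels link to was not used here. No genotype or added agent is named in the labels. Both replicates carry 1 donor identifier, so they may not be separate animals and the spread between them may be technical. The names of the regions also hold the words ASTARR and insert, so the values may come from inserts prepared for another assay, and this bears on every region below.

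Anergy is a state in which a T cell that met antigen without costimulation no longer divides or makes IL-2 when it meets that antigen again. Calcium signals that act through NFAT without full AP-1 activity induce the zinc finger factors Egr2 and Egr3, and with them genes whose products dampen the T cell receptor. Among these products are ubiquitin ligases, which mark signalling proteins for degradation or sorting, and diacylglycerol kinases, which remove the lipid that activates Ras and protein kinase C theta. Regulatory T cells share several of these brakes.

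The 4 sequences below are shown because they hold the strongest promoter region and the strongest upstream region of Egr2, the strongest intronic region of Cblb and the lone region of Rnf128. All are from the RefSeq genome GRCm38.p6, which has the coordinates of mm10, and all 4 are on the plus strand, along the gene. Each starts 100 bp before the replicate 1 summit, and annotated exon bases were left out, which shortened the windows of the Egr2 promoter and Rnf128. Capitals mark motif matches. In the Egr2 promoter they mark a CArG box, an NFAT match that shares bases with it and an SP/KLF match. At Egr2 -7.92 kb they mark a forkhead and an AP-1 match, and at Rnf128 an SP/KLF match, while the Cblb window had no match to any motif searched.
Egr2 promoter, -0.327 kb, chr10:67537442-67537565: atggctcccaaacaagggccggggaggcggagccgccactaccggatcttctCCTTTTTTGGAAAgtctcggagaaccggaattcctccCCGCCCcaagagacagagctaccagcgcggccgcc
Egr2 upstream, -7.92 kb, chr10:67529846-67530046: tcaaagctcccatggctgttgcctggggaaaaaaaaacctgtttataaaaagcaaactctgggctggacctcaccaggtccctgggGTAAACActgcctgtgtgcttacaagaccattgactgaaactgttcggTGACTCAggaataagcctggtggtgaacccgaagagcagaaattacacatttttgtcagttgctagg
Cblb intron 9, +116 kb, chr16:52147331-52147531: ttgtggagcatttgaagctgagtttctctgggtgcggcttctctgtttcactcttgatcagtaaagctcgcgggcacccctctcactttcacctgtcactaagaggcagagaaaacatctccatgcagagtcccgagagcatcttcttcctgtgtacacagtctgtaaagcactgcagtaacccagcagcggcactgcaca
Rnf128 promoter, -0.02 kb, chrX:139610500-139610619: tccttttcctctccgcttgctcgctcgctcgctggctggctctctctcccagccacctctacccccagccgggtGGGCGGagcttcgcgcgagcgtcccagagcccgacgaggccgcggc

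The labelled cell type was checked at marker genes. All 8 regulatory T cell markers, Foxp3 among them, and all 7 matched T cell markers had a promoter region in both replicates. The same was true of 2 of 6 B cell markers (Cd79b and Pax5), 2 of 6 myeloid markers (Cd14 and Cd68) and 0 of 6 hepatocyte markers. Such a region was found at 63.0% of all protein-coding genes. The part that other cells played in the results below was not tested. Depth is unknown, as the lists hold no read counts, and the deposited signal of a region has no stated scale. Each region carries the authors' signal and -log10 q, and these were used here as percentiles within the list of their own replicate. With 1 group there was nothing to test, so every comparison with other genes is a description.

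All 7 genes had an accessible promoter in both replicates, where a promoter reaches 1 kb out from any start of a coding transcript. Among all protein-coding genes the share was 63.0%. Of the regions in the 7 loci, 53 of 54 in replicate 1 (98.1%) were overlapped by a region of replicate 2, against 93.2% of all regions in that list. In the other direction, 55 of 61 regions in replicate 2 (90.2%) were overlapped by replicate 1, against 81.6% of all. Merging the overlapping regions gave 52 replicated regions in the 7 loci, out of 63433 in the series. They lay 10 at promoters of the members, 26 in introns, 5 upstream, 6 downstream and 5 at promoters of other genes, 1 of which, Gm9821, starts within the body of Dgkz. Summits, the points of highest signal, were placed within 50 bp of each other in 40 of the 52 regions, with a median gap of 14 bp and a largest gap of 290 bp. Summit gaps were not computed over all replicated regions of the series.

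The 7 genes had a median of 5 and a mean of 7.43 replicated regions per locus, against a median of 2 and a mean of 3.02 over all protein-coding genes. Over all of these genes, 76.3% had at least 1 such region. Long loci can hold more regions, so each gene was also set beside the 500 protein-coding genes nearest to it in locus length. Dgka (8 regions) was above 99.2% of its 500, Dgkz (10) above 98.8%, Egr3 (5) above 96.0%, Cblb (19) above 94.0% and Egr2 (4) above 86.0%. Itch (5 regions) was above 45% of its 500 and Rnf128 (1 region) above 11.4%. The kinases, Cblb and the EGR factors thus had more regions than most genes of their length, Itch had the median number, and Rnf128 had fewer than most. These counts depend on the settings. With the 50000 regions of highest signal in each list Dgka had 2 replicated regions and Egr3 had 2. In gene bodies without the flanks Dgka had 3, Egr3 had 2, Egr2 had 2 and Itch had 3, while Cblb had 19 and Dgkz had 8. Places among genes of like length were not computed under these settings. The share of the locus covered by regions was 20.5% and 23.7% at Egr2 in replicates 1 and 2, 20.4% and 20.2% at Egr3, 17.3% and 17.3% at Dgka, and 17.3% and 18.8% at Dgkz. It was 7.12% and 8.11% at Cblb, 3.44% and 3.86% at Itch, and 0.845% and 0.901% at Rnf128. These shares include regions at promoters of other genes in the flanks. They were not computed for other genes, so they are not read as traits of the members.

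**Figure D1:**
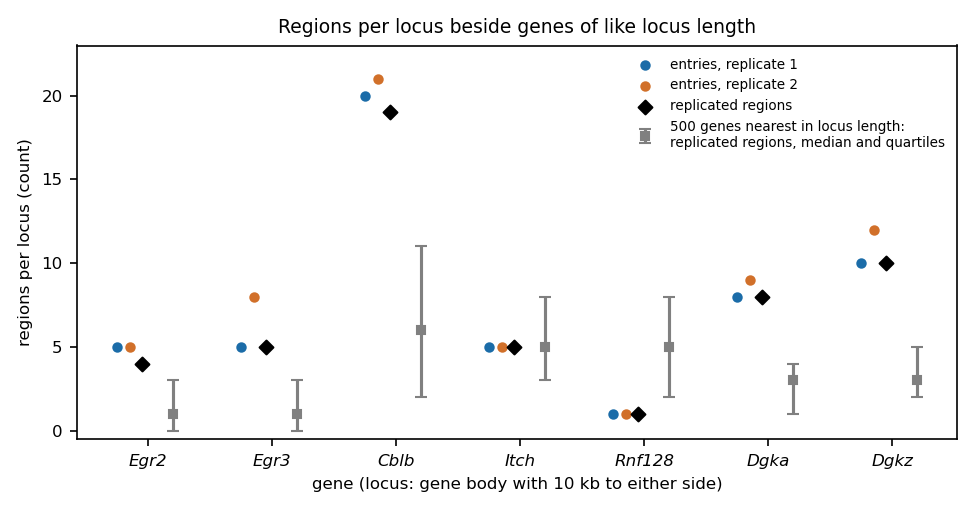
Regions per locus (count, y axis) for each of the 7 genes (x axis). Circles are the listed regions of replicate 1 and replicate 2, diamonds the replicated regions, and grey squares with bars the median and quartiles of replicated regions over the 500 genes nearest in locus length. The diamonds of Egr2, Egr3, Cblb, Dgka and Dgkz lie above the upper quartile, that of Itch lies at the median of 5, and that of Rnf128 at 1 lies below the lower quartile of 2.

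The counts were also read among those of the 500 genes that had an accessible promoter in both replicates. Dgka then had more regions than 374 of 378 such genes and as many as the other 4. Dgkz had more than 376 of 382, Cblb more than 337 of 366, Egr3 more than 186 of 206 and Egr2 more than 193 of 259. Itch had more than 148 of 412. Rnf128 had more than 0 of 396, as many as 23 and fewer than 373. Rnf128 was thus at the low end among genes with accessible promoters too.

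**Figure D2:**
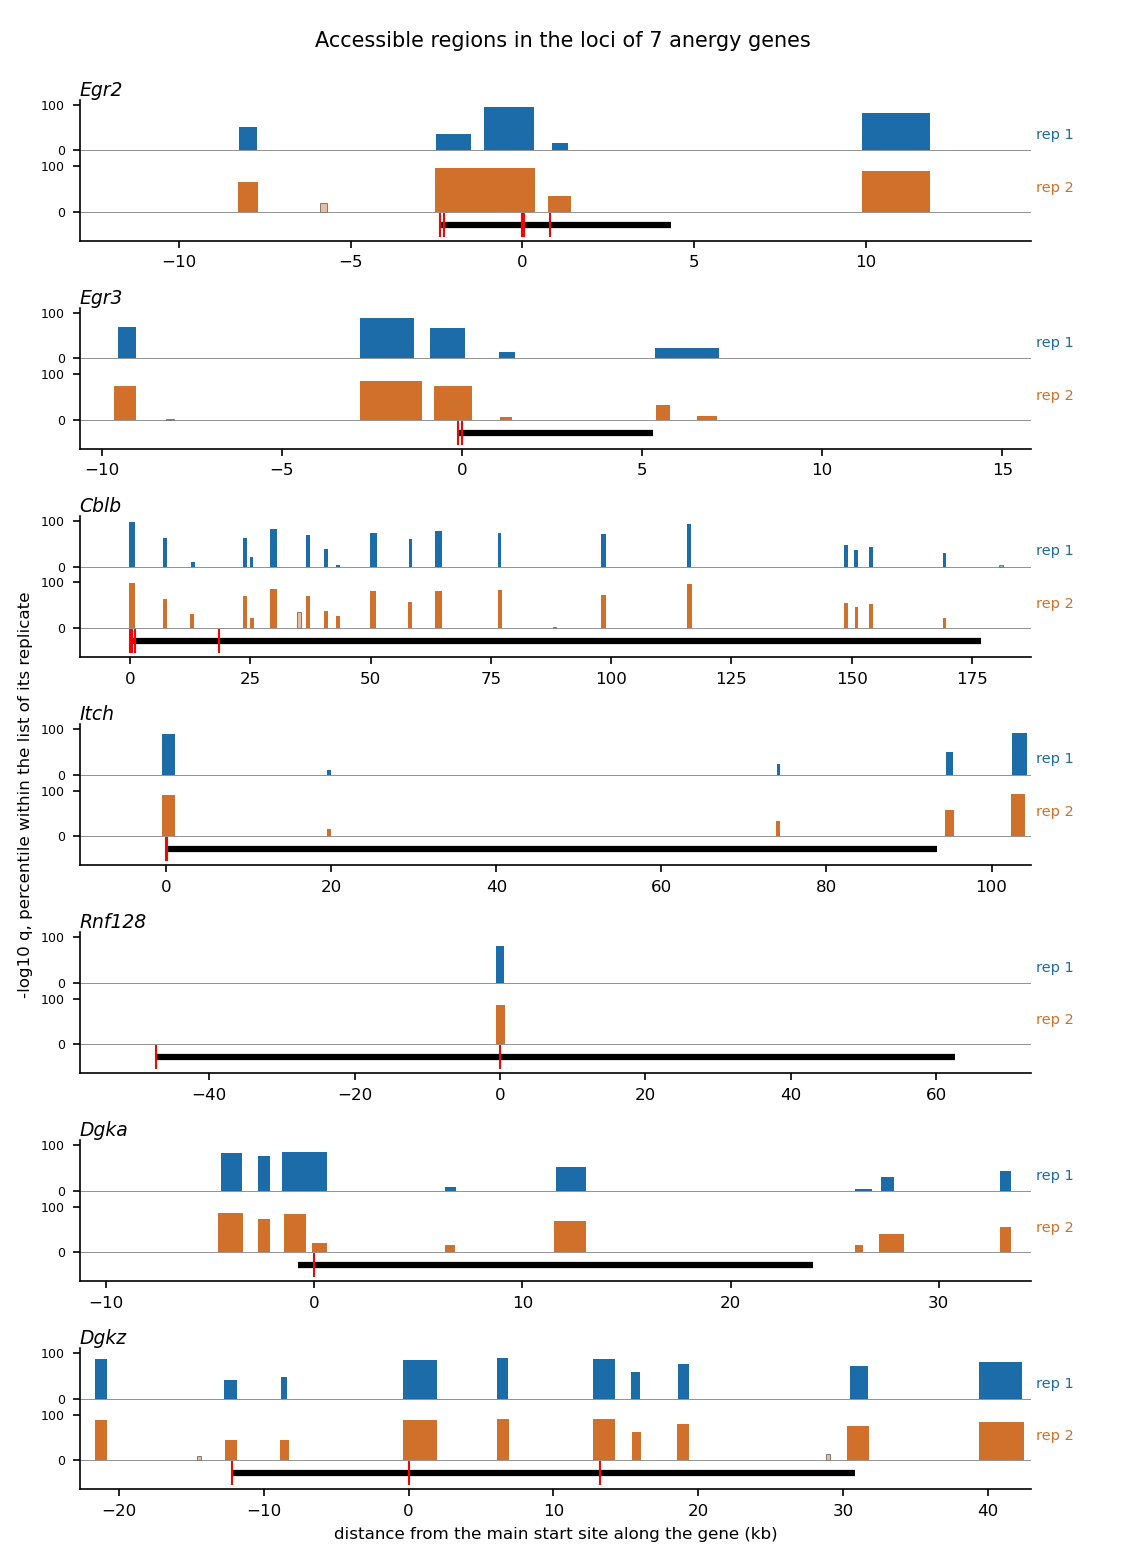
Regions in the 7 loci, with distance from the main start site along the gene in kb on the x axis and, for each replicate, the percentile of -log10 q within its own list on the y axis (0 to 100). Blue and orange boxes are regions of replicate 1 and replicate 2, pale boxes are regions with no overlap in the other replicate, black bars are gene bodies and red ticks are start sites of protein-coding transcripts. The tracks of the replicates match at nearly every tall box, Cblb has boxes along most of its body and Rnf128 has 1 box in each replicate.

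Egr2 and Egr3 encode zinc finger transcription factors induced by T cell receptor signalling, which restrain effector genes in anergic T cells. Egr2 lies at chr10:67535475-67542188 on the plus strand in mm10, with 6 annotated coding start sites. Its promoter region had a summit at -0.327 kb from the main start, on the same base in both replicates. Its -log10 q was 223 in replicate 1 and 359 in replicate 2, percentiles 96.0 and 97.3 of the lists. Its signal was 8.51 and 8.78, at percentiles 65.1 and 69.5. The merged region spanned 2898 bp and held the upstream start sites at -2.39 and -2.29 kb, with 2 regions listed there in replicate 1 and 1 wide region in replicate 2. A weak region at +1.20 kb, near the start site at +0.814 kb, had signals of 1.87 and 2.07 and ranked at percentiles 0.238 and 1.07. Upstream, the region at -7.92 kb had signals of 6.39 and 7.60 and -log10 q values of 24.3 and 48.8, so it was of middle rank in both replicates. The fourth region, at +11.3 kb, lay at the start of the neighbour Ado, with signals of 8.77 and 10.1. A region at -5.80 kb was listed in replicate 2 alone, with a signal of 2.27.

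Egr3 lies at chr14:70077203-70082614 on the plus strand. Its promoter region, at -0.425 kb, had signals of 3.92 and 4.22, at percentiles 20.3 and 29.9, and -log10 q values of 43.4 and 74.9, at percentiles 67.4 and 74.3. The region at -2.35 kb ranked higher than the promoter by both values. There the signal was 7.36 and 6.14, at percentiles 56.6 and 50.4, and -log10 q was 143 and 152, at percentiles 90.0 and 86.4. By -log10 q it was the strongest region of Egr3 in both replicates. Its summits lay upstream of the promoter window, which the listed region reached at its edge in replicate 2 but not in replicate 1. A further region at -9.27 kb had signals of 6.20 and 6.25. A region in intron 1, at +1.17 kb, had signals of 1.88 and 1.55, at percentiles 0.248 and 0.0626, and is among the weakest of either list. The region past the 3′ end, at +5.55 kb, had signals of 2.89 and 2.95 and was listed as 1 region in replicate 1 and as 3 in replicate 2. A region at -8.20 kb was found in replicate 2 alone.

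The Egr2 promoter held a CArG box near its summit. A CArG box is the site of serum response factor, a run of A and T bases between CC and GG, and this factor drives early response genes in many cell types. The match lay at bases -48 to -39 from the summit, as seen in the sequence above. The loci of the 6 genes other than Egr3 gave 14 promoter windows and 33 others, each of 100 bp to either side of a summit. The 14 include the 5 regions at promoters of other genes, so shares of promoter windows here and below are not those of the members' promoters alone. This was the 1 CArG match in the 14 promoter windows (7.14%, against 0.657% of 14468 promoter windows in the series), and 0 of the 33 others had one, against 1.02% of 49704. With 1 match, and 16 motifs searched, nothing is read from this difference in shares. The CArG box shares bases with an NFAT match at -41 to -36, so the letters of one are in part those of the other.

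Cblb encodes Cbl-b, a RING ubiquitin ligase that sets the need for CD28 costimulation and whose loss lets T cells respond without it. The gene lies at chr16:52031225-52208048 on the plus strand. Its promoter region, with a summit at +0.291 kb in the 5′ untranslated part of exon 1, ranked highest of the 52 regions by -log10 q. That value was 355 and 480.5, at percentiles 99.3 and 99.1, and the signal was 14.1 and 13.9, at percentiles 92.5 and 92.4. The other 18 replicated regions were all intronic. Intron 3, which is 64.7 kb long, held 10 of them, and introns 2, 4, 9, 13, 14 and 17 held the others. A later start site, at +18.4 kb, was 5117 bp from the nearest region of replicate 1 and 5122 bp from that of replicate 2.

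Among the intronic regions of Cblb, the one at +116 kb in intron 9 was the strongest by -log10 q, with 196 and 299.8 in replicates 1 and 2, at percentiles 94.5 and 95.6. Its signal was 13.4 and 13.6. By signal in replicate 2 the strongest was at +76.9 kb in intron 3, with 12.8 in replicate 1 and 15.01 in replicate 2, at percentiles 87.9 and 95.5. Another region of high signal, at +98.4 kb in intron 4, had 11.9 and 10.5. All 3 lay between signal percentiles 79.1 and 95.5, and the nearest start site of another coding gene, that of Alcam, was 96.6 kb or more from each of the 19 regions. At the low end, the region at +25.2 kb had signals of 2.59 and 2.29. Regions at +34.9 and +88.2 kb were listed in replicate 2 alone and a region at +181 kb in replicate 1 alone.

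Itch encodes a HECT ubiquitin ligase that acts on phospholipase C gamma 1 and protein kinase C theta in anergic T cells and on JunB in helper T cells. It lies at chr2:155133509-155226855 on the plus strand. Its promoter region, at -0.053 kb, had signals of 12.9 and 14.1, at percentiles 88.3 and 92.9, and -log10 q values of 132 and 204. Inside the gene there were 2 weak regions, at +19.7 kb in intron 2 with signals of 3.58 and 3.67 and at +74.1 kb in intron 17 with signals of 4.77 and 5.34. Past the 3′ end, at +94.9 kb, signals were 7.83 and 7.52 and -log10 q values 22.3 and 32.5, the highest outside promoters in this locus by both. The region at +103 kb, with signals of 12.8 and 13.5, is at the start of Dynlrb1, a dynein light chain gene. The Itch locus thus had a strong promoter and 2 weak regions in the gene body. Its count of 5 was the median among genes of like locus length, and gene bodies were not compared between genes.

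Rnf128 encodes GRAIL, a transmembrane RING ubiquitin ligase of the endosome that blocks IL-2 production when it is expressed in T cells. It lies at chrX:139563316-139673145 on the plus strand, in a locus of 129.8 kb. Its lone region was at the start site of Rnf128-201, with summits at -0.02 and -0.018 kb. The signal was 15.9 and 15.7, at percentiles 97.1 and 96.8, the highest of the 52 regions in both replicates. Its -log10 q was 84.9 and 138, at percentiles 81.2 and 84.8. The other annotated start site, at -47.3 kb, was 46720 bp from the region in replicate 1 and 46796 bp in replicate 2. No other region was listed in either replicate within the gene or 10 kb to either side.

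Dgka encodes diacylglycerol kinase alpha, which turns diacylglycerol into phosphatidic acid and so limits RasGRP1 and Ras. It lies at chr10:128720134-128744855 on the minus strand. Its promoter region, with a summit at -0.826 kb on the same base in both replicates, had signals of 4.76 and 4.28, at percentiles 30.5 and 30.3. Its -log10 q was 106 and 121, at percentiles 85.1 and 82.8. Replicate 1 listed 1 region here and replicate 2 listed 2. The region of replicate 2 at the main start itself, with a summit at +0.015 kb, had a signal of 1.67, at percentile 0.164. The nearest GENCODE transcript start, of any type, was 46 bp from the summit at -0.826 kb. RefSeq places a start site at -1.009 kb, 183 bp from that summit, and both are nearer to it than the main start is. Upstream, at -2.36 kb, lay the strongest region outside promoters by -log10 q, with 65.8 and 71.5 and signals of 3.80 and 3.38. At -3.82 kb the start of the neighbour Pym1 had signals of 4.52 and 4.64. These 3 neighbouring regions had low signal percentiles and high -log10 q percentiles in both replicates. In the body, the region at +11.9 kb in intron 9 had the highest signal outside promoters, with 7.003 and 8.65. The region at +6.77 kb in intron 1 had signals of 2.89 and 2.79, and its summits were 290 bp apart. RefSeq places a start site at +6.46 kb, inside this region in both replicates. Promoters were set here by GENCODE coding starts alone, so this region is counted as outside promoters, also in the motif windows. The last 3 regions, at +26.0, +27.7 and +33.3 kb, lie within the body of Pmel, with signals between 2.41 and 6.67 in replicate 1 and between 2.90 and 7.68 in replicate 2.

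Dgkz encodes diacylglycerol kinase zeta, the other kinase of this class that limits T cell receptor signals. It lies at chr2:91932824-91975864 on the minus strand and had 3 promoter regions, more than any other of the 7 genes. At the main start site the summit was at +1.28 kb, with signals of 5.50 and 5.75 and -log10 q of 109.9 and 165. At the downstream start, the summit at +13.1 kb had signals of 7.80 and 8.05 and -log10 q of 126 and 194. At the upstream start, the summit at -12.2 kb had signals of 5.50 and 5.19 but -log10 q of 15.7 and 19.9. The upstream start thus ranked lowest of the 3 in -log10 q in both replicates. The strongest region outside promoters by -log10 q was at +6.39 kb in intron 1, with 144 and 212. By signal it was at -21.1 kb, inside the body of the neighbour Creb3l1, with 10.3 and 10.6. Intron 1 is 18.4 kb long and held 4 summits. Regions at -14.4 and +28.9 kb were listed in replicate 2 alone, and a region at +41.6 kb was the widest of the locus at 3090 bp.

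Between the replicates the 52 regions kept nearly the same order, with a Spearman coefficient of 0.961 for signal and 0.984 for -log10 q across regions. These regions come from the same 2 libraries and are not independent, so no p is given. The -log10 q was higher in replicate 2 in 50 of 52 regions, and so was its percentile in 42, while signal was higher in 30. These counts and coefficients were not computed over all regions shared by the replicates, so they are not read as traits of the members. Over all shared regions the median -log10 q percentile was 53.4 in replicate 1 and 59.1 in replicate 2. Signal percentiles differed by a median of 4.38 points, with a largest difference of 22.3 points. The 7 regions of single replicates were all of low signal. The 1 of replicate 1 was at percentile 6.35 and the 6 of replicate 2 lay between percentiles 0.162 and 10.6. Neither the differences in signal percentile nor the ranks of single-replicate regions were computed over the whole series. They too are not read as traits of the members.

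Signal and -log10 q ranked the members differently. By signal, the 52 regions had a median percentile of 48.4 in replicate 1 and of 51.7 in replicate 2, where all shared regions of each list had 53.4 and 59.3. By -log10 q they had medians of 65.4 and 69.5, where all shared regions had 53.4 and 59.1. In 15 of 52 regions (28.8%) of replicate 1 and 17 (32.7%) of replicate 2, the -log10 q percentile was over 20 points above the signal percentile. Over all shared regions that share was 11.4% and 11.5%. Dgkz gave 7 of these regions in each replicate, Egr3 gave 3 and 4, Dgka 3 and 3, Egr2 1 and 2, Cblb 1 and 1, and Itch and Rnf128 none. Regions listed in the loci were also wider, with median widths of 809 and 727 bp in replicates 1 and 2, against 632 and 635 bp over all regions. The part of width in the ranks was not tested.

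**Figure D3:**
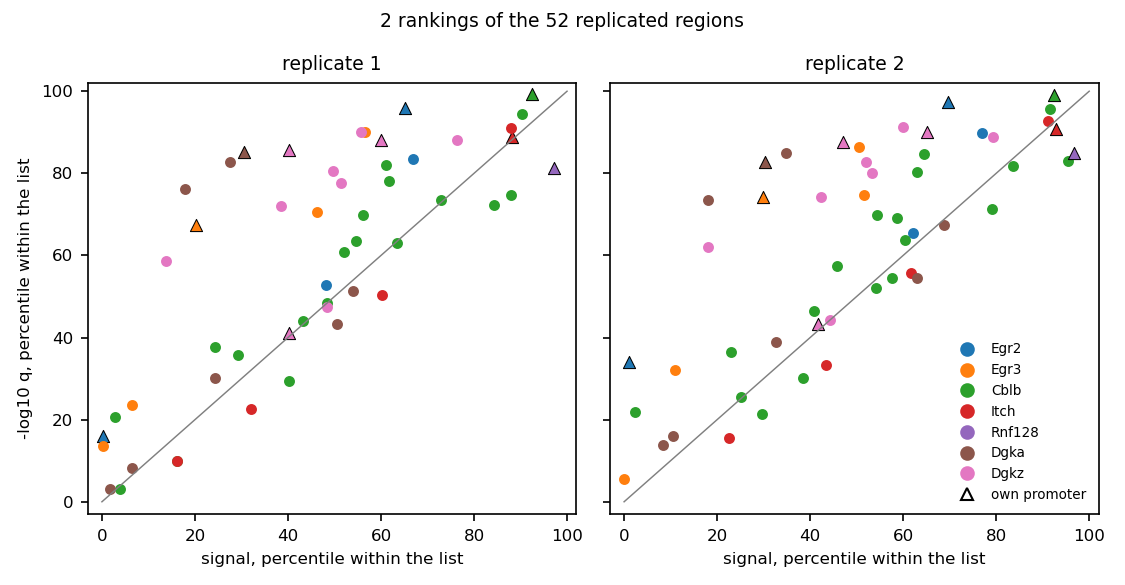
Percentile of signal (x axis) against percentile of -log10 q (y axis) within the list of each replicate, for the 52 replicated regions, replicate 1 on the left and replicate 2 on the right. Points are coloured by gene, triangles are promoters of the members and the line marks equal percentiles. Most points of Dgkz, Egr3 and the Dgka promoter lie far above the line, and the Rnf128 promoter lies below it, at a signal percentile of 97.1 and a -log10 q percentile of 81.2 in replicate 1.

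The same windows of these 6 genes, set on the replicate 1 summits, were searched on both strands for 16 consensus motifs. The AP-1 site TGAGTCA, bound by Fos and Jun proteins, was in 0 of 14 promoter windows and in 8 of 33 others (24.2%). Its shares over all regions were 4.09% and 18.5%. The 8 were at Egr2 -7.92 kb, Cblb +25.2, +58.4 and +149 kb, Itch +19.7 kb, Dgka +6.77 and +11.9 kb, and Dgkz -8.58 kb. Each of the 6 genes but Rnf128 thus had 1 or more outside promoters. The lone region of Rnf128 is its promoter, so that gene gave no window outside promoters and could have no match there. The NFAT site TGGAAA was in 3 of 14 promoter windows (21.4%) and 6 of 33 others (18.2%), against 9.03% and 19.8% over all regions. The RUNX site TGTGGTT was in 0 of 14 and 5 of 33 (15.2%), against 3.10% and 10.5%. The forkhead site TGTTTAC was in 1 of 33 windows outside promoters (3.03%, against 2.33%), at Egr2 -7.92 kb, a share near that of the series. With this few windows, nothing is read from the shares of these or the other motifs, at promoters or outside them.

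The binding site of the EGR factors themselves, GCGNGGGCG, was in 0 of 14 promoter windows, against 8.55% of all promoter windows. It was in 1 of 33 others (3.03%, against 0.489%), at Dgkz -21.1 kb, where it shares bases with an SP/KLF match. The SP/KLF site GGGCGG was in 8 of 14 promoter windows (57.1%, against 54.6%) and in 6 of 33 others (18.2%, against 7.29%). It was repeated 3 times at the Cblb promoter and 3 times at Dgkz -21.1 kb, where the matches overlap, as do those at the Dgka promoter. The NF-Y site CCAAT was in 3 of 14 (21.4%, against 28.4%) and 6 of 33 (18.2%, against 20.2%). The STAT site TTCNNNGAA was in 2 of 14 (14.3%, against 5.06%) and 3 of 33 (9.09%, against 15.9%). The NRF1 site GCGCNTGCG was in 2 of 14 (14.3%, against 8.67%), at the starts of Itch and Ado. The CTCF site CCANNAGNNGGC was in 1 of 14 (7.14%, against 3.39%), at Dgkz +19.3 kb, and in 0 of 33, against 10.3%. The NF-kB site GGGANNTTCC was in 0 of 14, against 1.29%, and in 1 of 33 (3.03%, against 2.06%), at Cblb +13.1 kb. No window held the CRE site TGACGTCA, the ETS site CCGGAAG, the TCF/LEF site CTTTGAT or the E-box CACGTG. In promoter windows and others of the whole series, their shares were 2.34% and 0.459% for CRE, 12.8% and 1.91% for ETS, 1.57% and 4.31% for TCF/LEF, and 6.67% and 3.18% for the E-box.

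**Figure D4:**
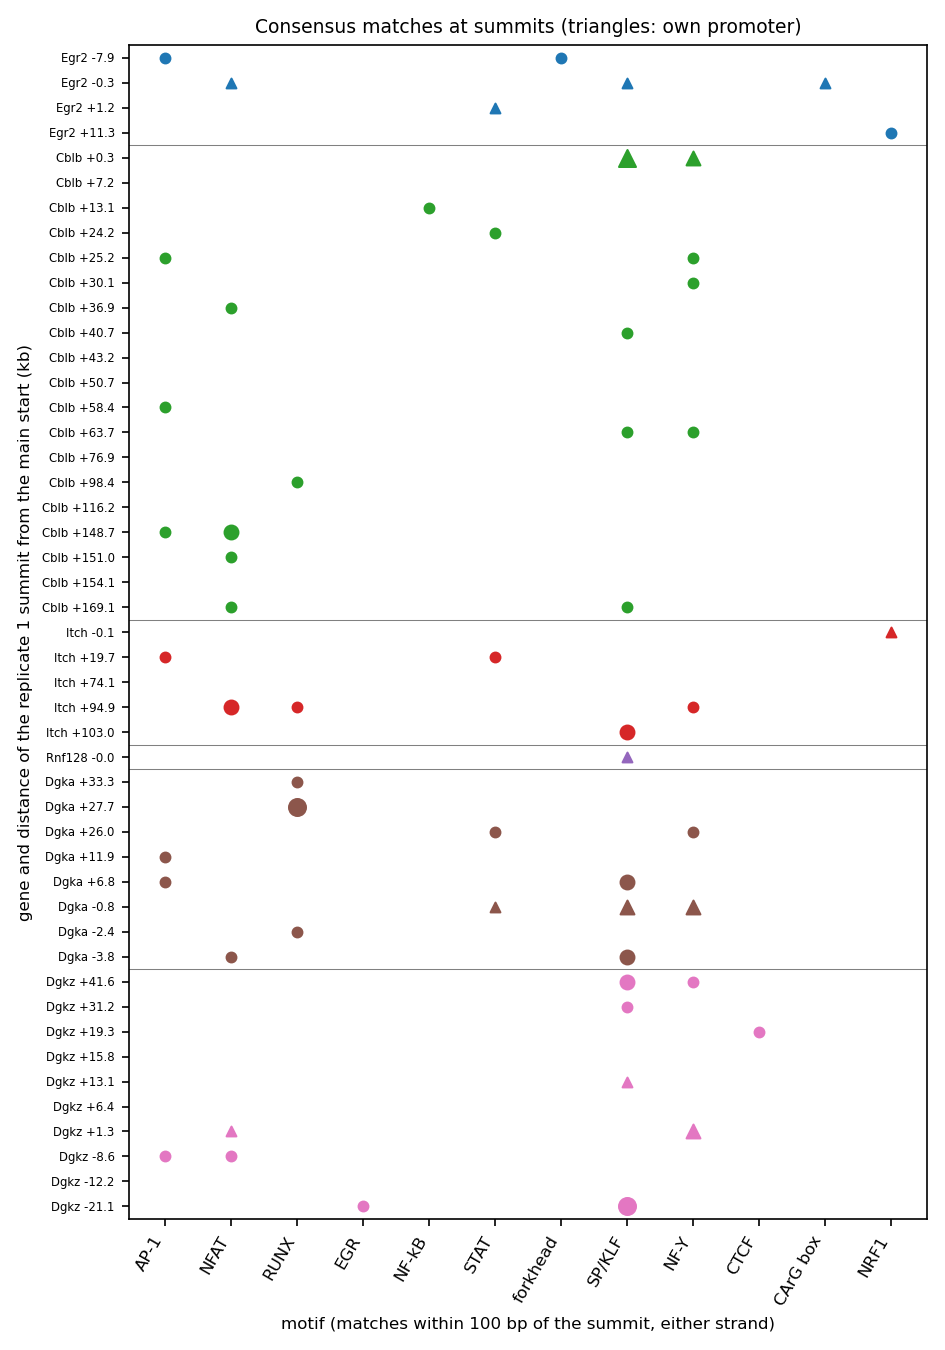
Motif matches (x axis) within 100 bp of the replicate 1 summit of each replicated region of the 6 genes other than Egr3 (y axis, gene and summit distance from the main start in kb). Triangles are promoters of the members, circles are other regions, and larger marks stand for more matches. The CArG column has 1 mark, at the Egr2 promoter, and the AP-1 column has 8 marks, all of them circles.

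Base composition of the windows of these 6 genes was near that of the series. Median GC content was 62.9% in the 14 promoter windows, which include those of neighbouring genes, against 64.7% over all. In the 33 others it was 44.8%, against 47.8%. Within 500 bp of the main start site, GC content ran between 54.7% at Cblb and 69.6% at Dgkz, with a median of 55.2% over 21826 genes. The ratio of observed to expected CpG was lowest at Dgka with 0.551 and highest at Dgkz with 0.901, against a median of 0.565.

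The other genes of these families and of the pathway were counted in the same way. Of Egr1, Egr4 and the corepressors Nab1 and Nab2, which bind EGR factors, 4 of 4 had a promoter region in both replicates, with a median of 3.5 replicated regions and the most at Nab2 (6) and Nab1 (4). Of 17 ubiquitin ligases and adaptors related to Cblb, Itch and Rnf128, 15 had one, with a median of 7. Nedd4l had 21 and Rnf150 and Smurf1 had 11 each, while Rnf133 and Rnf148 had no region. Of 8 other diacylglycerol kinases 6 had one, with a median of 5. Dgkd had 17 regions and Dgkh 13, and Dgkb and Dgkk had no promoter region in both replicates. All 10 genes of diacylglycerol and T cell receptor signalling had one, with a median of 9.5. Among them Prkcq, which encodes protein kinase C theta, had 20 and Pik3r1, a regulatory subunit of phosphoinositide 3-kinase, had 12. All 17 other genes tied to anergy had one, with a median of 7 and the most at Nfatc2 (22) and Ikzf1 (20). The 63.0% and the median of 2 over all genes are the values these stand beside. Unlike the members, the genes of these lists were not set beside genes of like locus length. Long loci can hold more regions, so nothing is read from these medians or from the highest counts.

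Genes of the same number of regions and the nearest locus length, by difference in length over all protein-coding genes, were named for each member. They were Sirt4 and Gnl3 for Egr2, Slc34a3 and Eif4a1 for Egr3, Tmcc1 and Ncoa7 for Cblb, and Hira and Pphln1 for Itch. For Dgka they were Cyth4 and Ubxn11 and for Dgkz Ezr and Tespa1. For Rnf128 they were Sgpp2 and Glp2r, and neither had a promoter region in both replicates, where Rnf128 had one of high signal.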

How the data were processed

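Regions of open chromatin were listed by the authors for each of 2 replicates on mm10, per the file headers and labels. The deposited lists hold a signal per region on a scale that is not stated, the -log10 of p and q, and a score. Only the deposited signal and -log10 q were used, as percentiles within a list. Names of the listed regions hold the words masked, dedup and sorted. For the aligner, the caller and any transposase shift, names and settings were not given in the sources used here. Depth is unknown, so no interval is given.

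Regions on chromosomes 1 to 19, X and Y were joined to GENCODE M21 (GRCm38); 71 and 84 regions of replicates 1 and 2 lay elsewhere. Replicates shared a region at an overlap of 1 bp. A promoter region needed a listed region of each replicate within 1 kb of a coding start site. Main start sites were those of the coding transcript with the first-ranked principal tag in the annotation. Ties and genes without a tag were settled by the longest coding sequence and then by identifier. Motifs were matched in the RefSeq genome GRCm38.p6. The sequence of the Egr3 locus is not reported here, so motifs and base composition cover the other 6 genes. The RefSeq promoter table gave further start sites; Egr3 and Itch had no entry. Python 3.11.15, pandas 2.3.3, numpy 2.4.6, pysam 0.24.0 and matplotlib 3.10.9 were used. The overlap, merging and counting of regions were tested on simulated data, and the other steps were not. No test was run.

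All 7 members were named. In each locus the text gives promoter regions, the strongest others by signal and -log10 q, and regions of a single replicate; regions further described were chosen after their values were seen. In each list it gives the 2 genes with the most regions and those with no promoter region. The members, lists, motifs and rules were chosen with earlier results of these data known.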

Additional observations from a re-analysis of the deposited data

How the results depend on the processing

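The total of 52 replicated regions was 46 with a -log10 q of 5 or more, 41 and 35 with the 50000 highest regions of each list by -log10 q and by signal, 50 with an overlap of 50% of both regions, and 38 in gene bodies alone. With 50 kb to either side it was 87, as the loci are then longer. Counted in 1 list without overlap it was 61 without replicate 1 and 54 without replicate 2. All 7 genes kept a promoter region under the limit of 5, with the highest by -log10 q, with either replicate left out and with other promoter windows or start sites. By signal 5 did, without Egr3 and Dgka, and at the 50% overlap 6 did, without Dgka, so these promoter calls rest on how regions are ranked or split. At the 6 genes searched, pairs of a window and a motif with 1 or more matches numbered 57 within 100 bp of a summit and 40 within 50 bp. Repeated matches of a motif in a window count once here. With 100 or 1000 genes of like length in place of 500, the order of Itch and Rnf128 below the other 5 genes held. A region shows access to DNA, not transcription, and the unknown depth limits weak regions.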
